A study of Mus musculus with 10 samples.

Results

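Imprinted genes are expressed mainly or only from the copy inherited from one parent. The 38 imprinted genes described here were taken from a list of well-known mouse imprinted genes, and 32 of them had a probe set annotated to their symbol alone among the 19938 genes measured. Mirg, Snrpn, Ube3a and Gnas shared their probe sets with other gene symbols, and H19 and Kcnq1ot1, which the annotation used names on none, were not analysed here. The arrays measured RNA of pancreatic islets, the endocrine cell clusters that secrete insulin and glucagon, from male mice of 2 inbred strains aged 6 weeks. The NZO group was NZO/Hl, an obese strain prone to diabetes, with 5 arrays, and the C3H group was C3HeB/FeJ, with 5 arrays. Both strains were fed a diet with 45% of its energy as fat from weaning at day 21, and the isolated islets of both rested overnight in medium with 10 mM glucose. No transgene or gene deletion is named in the labels. Titles carry 1 or more animal numbers, and the labels do not say whether an array holds pooled animals, so a p-value covers the spread between arrays, which may be partly technical.

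Imprinted genes lie in clusters, in which a control region that is methylated on one parental copy sets which genes of the cluster that copy expresses. Many paternally expressed members of such clusters promote growth in the mouse embryo and many maternally expressed ones restrain it. In the pancreas the family is known for PLAGL1, whose overexpression causes transient neonatal diabetes in humans, for CDKN1C, a cell cycle inhibitor lost in some human hyperinsulinism, and for neuronatin, which supports insulin secretion in mouse beta cells. A probe set reports the RNA of both parental copies together, so the values below are total levels and do not show which copy was expressed.

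Of the 32 measured members, 9 were lower in NZO with an adjusted p below 0.05 and none was higher, by limma over all 19938 genes with Benjamini-Hochberg adjustment. In the same fit 10.1% of all genes passed, 4.61% as lower and 5.47% as higher in NZO. The 9 were Mest, Usp29, Dlk1, Nap1l5, Plagl1, Ndn, Sgce, Nnat and Sfmbt2, and all belong to the 20 measured members that are expressed from the paternal copy in mouse. The strains did not overlap in 6 of the 9 (Mest, Dlk1, Plagl1, Ndn, Nnat and Sfmbt2), where 9.14% of all genes did not overlap, 4.18% with NZO lower. None of the 12 measured maternally expressed members passed, and 1 of them, Zim1, had an unadjusted p below 0.05. The median log2 difference, NZO minus C3H, was -0.32 over the paternally expressed members, 0.02 over the maternally expressed members, -0.06 over all 32 and -0.02 over all genes tested. Over the 11 paternally expressed members that did not pass, the median was -0.04. The contrast between the 2 parental classes was not tested, and the members were chosen with earlier results of these data known. Of 31 further imprinted genes measured outside this list, 6 passed as higher and 4 as lower in NZO. They were not sorted by parental class, so the split seen in the members is not shown for imprinted genes in general. Among them, the paternally expressed Igf2 (0.47, limma adjusted p = 0.00859) was higher in NZO. So was the maternally expressed Igf2r (0.36, limma adjusted p = 0.0205), while the paternally expressed Zdbf2 was lower (-0.51, limma adjusted p = 0.0448). For several members, among them Ddc, Ube3a, Copg2, Inpp5f and the outer genes of the Kcnq1ot1 cluster, imprinting is known only in certain tissues or transcripts.

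**Figure D1:**
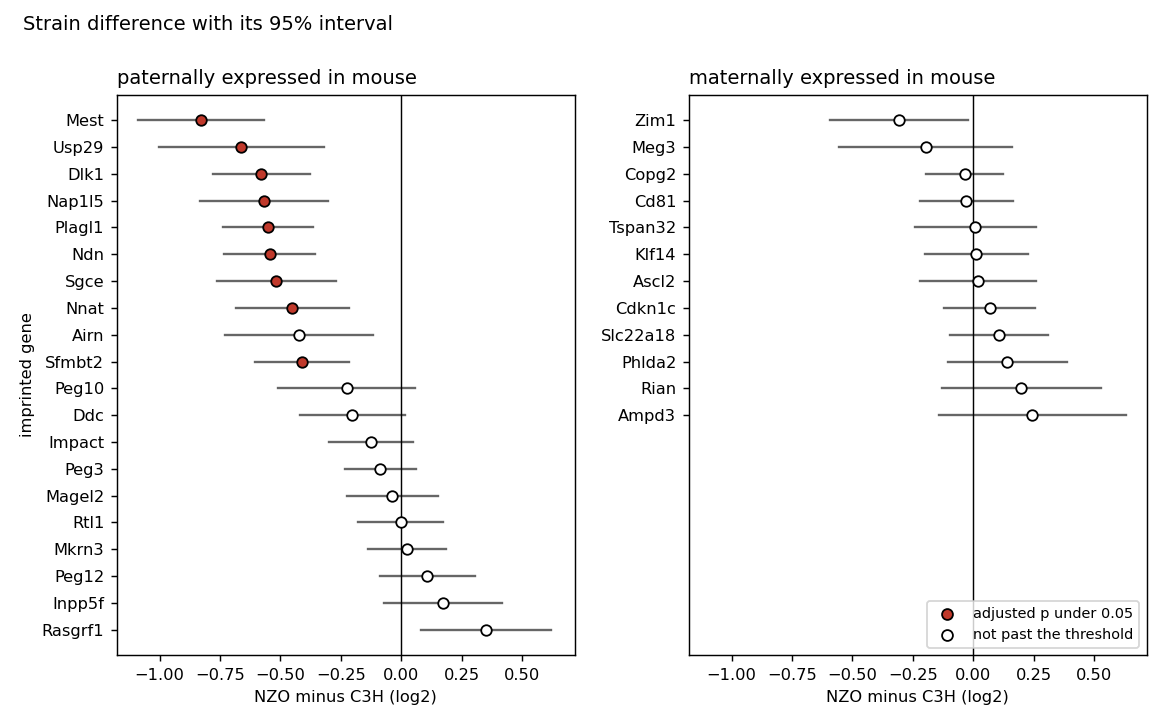
Log2 difference, NZO minus C3H, of each measured imprinted gene (x axis) with its 95% interval from limma, with paternally expressed genes on the left and maternally expressed genes on the right; filled points are the 9 genes with an adjusted p below 0.05. All filled points lie in the paternally expressed panel and left of 0, from -0.83 for Mest to -0.41 for Sfmbt2.

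Promoters of lower members are printed because the imprint of several of these loci lies at the promoter itself. The windows are from RefSeq on the assembly GRCm38.p6, cover 250 bases before to 50 bases after a transcription start, and are written 5′ to 3′ on the strand of the gene. Where RefSeq gave a gene several windows, the one with the most CpG dinucleotides was used. Capitals mark the letters TGCCGC on either strand (GCGGCA on the printed strand is a match on the other one), the core that the imprint-maintaining protein ZFP57 is known to bind when methylated. The Mest window (chr6:30737800-30738099, plus strand) held 17 CpG dinucleotides, that of Plagl1 (chr10:13090582-13090881, plus strand) 26, that of Nnat (chr2:157559828-157560127, plus strand) 17, that of Nap1l5 (chr6:58907077-58907376, minus strand) 17, and that of Usp29 (chr7:6730333-6730632, plus strand) 17.
Mest: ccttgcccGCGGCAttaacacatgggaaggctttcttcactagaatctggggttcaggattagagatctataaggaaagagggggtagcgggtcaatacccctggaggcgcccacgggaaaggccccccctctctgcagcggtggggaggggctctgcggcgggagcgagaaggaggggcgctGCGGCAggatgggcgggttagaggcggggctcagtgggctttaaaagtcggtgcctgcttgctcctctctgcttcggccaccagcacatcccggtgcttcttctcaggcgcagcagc
Plagl1: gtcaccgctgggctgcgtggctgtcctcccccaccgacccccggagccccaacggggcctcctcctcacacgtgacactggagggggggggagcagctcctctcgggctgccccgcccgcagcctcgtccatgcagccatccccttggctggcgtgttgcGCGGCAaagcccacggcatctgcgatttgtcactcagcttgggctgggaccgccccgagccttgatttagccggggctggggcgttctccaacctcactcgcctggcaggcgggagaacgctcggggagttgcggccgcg
Nnat: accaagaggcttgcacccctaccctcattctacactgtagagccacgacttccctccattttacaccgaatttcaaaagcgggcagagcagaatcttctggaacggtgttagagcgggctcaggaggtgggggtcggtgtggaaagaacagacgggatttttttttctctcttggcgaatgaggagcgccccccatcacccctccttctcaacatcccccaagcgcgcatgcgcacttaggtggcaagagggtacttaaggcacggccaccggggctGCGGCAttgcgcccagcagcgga
Nap1l5: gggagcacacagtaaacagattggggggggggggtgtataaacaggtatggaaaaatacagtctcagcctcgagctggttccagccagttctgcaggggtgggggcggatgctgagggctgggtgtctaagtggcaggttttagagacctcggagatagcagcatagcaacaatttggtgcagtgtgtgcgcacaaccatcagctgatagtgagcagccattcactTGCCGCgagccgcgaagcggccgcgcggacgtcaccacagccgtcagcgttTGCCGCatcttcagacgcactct
Usp29: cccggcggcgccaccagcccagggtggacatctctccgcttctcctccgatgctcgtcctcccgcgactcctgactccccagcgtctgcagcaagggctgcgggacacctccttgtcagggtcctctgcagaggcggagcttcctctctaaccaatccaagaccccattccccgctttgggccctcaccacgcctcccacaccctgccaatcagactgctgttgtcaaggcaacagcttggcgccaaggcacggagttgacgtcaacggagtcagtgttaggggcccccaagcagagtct
The 6 letters were found in the windows of 4 of the 8 lower members that have one (Mest, Plagl1, Nnat and Nap1l5), in 8 of the 26 measured members with a window, and in 12.2% of the windows of 27025 genes. By parental class the letters were in 4 of 16 windows of paternally expressed members and in 4 of 10 windows of maternally expressed members, none of which passed. The members' windows were also richer in CpG, with a median of 15.5 per window against 8 over all genes. Dlk1, Ndn, Sfmbt2 and Usp29 had no such match in this window, and for Sgce no window is printed. Usp29 and Peg3 are read in opposite directions from starts 164 bases apart, so their windows share 263 bases, and the printed Usp29 window therefore also holds most of the Peg3 window. These are matches of letters in the reference genome and were not read from either strain.

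Levels differed widely among the members, on a log2 scale on which the median gene of an array lay between 7.46 and 7.55. Peg3 and Cd81 were the brightest members, at percentiles 99.5 and 99.3 of the mean over all arrays, followed by Ddc, Inpp5f, Impact and Meg3 at percentiles 96.9, 96.6, 95.5 and 90.9. Tspan32, Mkrn3, Sfmbt2 and Ascl2 were the dimmest, at percentiles 13.6 to 23.7, where RMA values carry no call of detection. A rank compares probe sets of different probes and is only a rough guide to abundance.

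**Figure D2:**
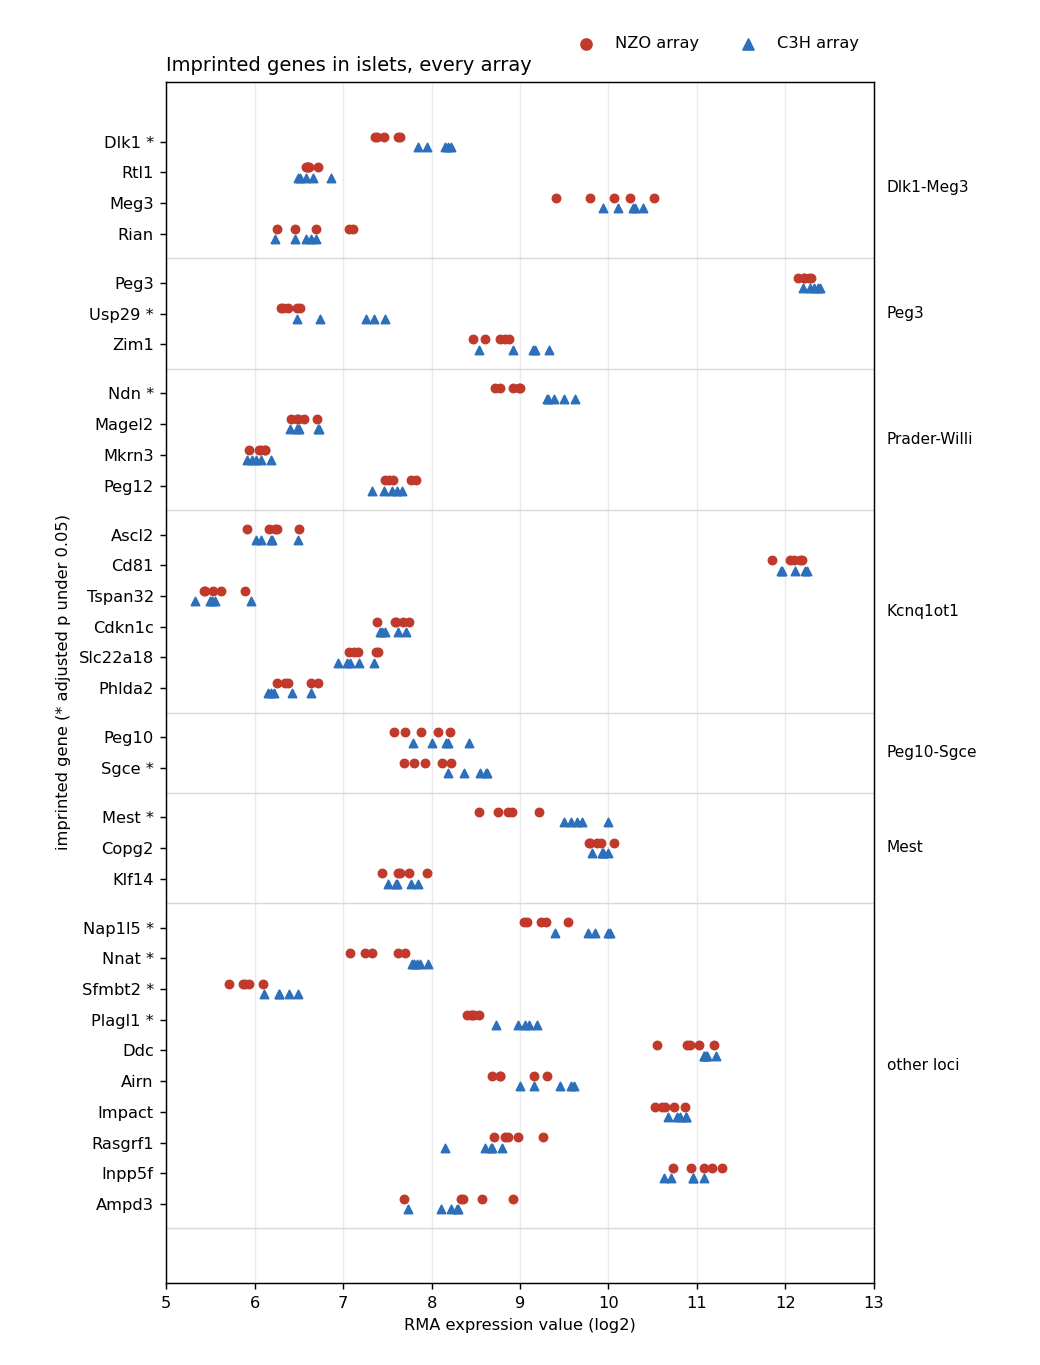
RMA expression value (x axis, log2) of the 32 measured imprinted genes on each of the 5 NZO arrays (circles) and 5 C3H arrays (triangles), grouped by cluster, with stars on the genes that passed. Peg3 and Cd81 stand at about 12.23 and 12.07 in NZO, and the strains separate completely in 6 genes.

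The arrays differed in markers of other pancreatic cells. The acinar score, the mean log2 value of 22 measured markers of enzyme-secreting acinar cells, was 9.83, 9.66, 10.15, 11.37 and 11.21 on the NZO arrays and 8.23 to 9.02 on the C3H arrays, and 19 of the 22 markers were higher in NZO. Macrophage markers averaged 7.88 to 9.18 in NZO and 7.81 to 8.05 in C3H, with 2 of 6 higher, and duct markers averaged 8.27 to 9.35 in NZO and 7.92 to 8.09 in C3H, with 2 of 5 higher. Stellate cell and fibroblast markers averaged 8.21 to 9.59 in NZO and 8.39 to 8.68 in C3H, with 2 of 9 higher. For all 4 types NZO replicates 4 and 5 were the 2 highest arrays. Beta cell markers averaged 10.68 to 11.55 in NZO and 11.41 to 11.58 in C3H, with 3 of 10 lower and lowest on NZO replicates 4 and 5, and delta and PP cell markers averaged 10.18 to 10.37 in NZO and 10.74 to 10.89 in C3H, with 4 of 5 lower. Of the other lists, 1 of 6 endothelial markers was higher, and 1 of 3 alpha and 1 of 3 Schwann cell markers were lower. Alpha cell markers averaged 9.98 to 10.30 in NZO and 10.33 to 10.44 in C3H. None of 4 lymphocyte markers passed in limma, with an unadjusted p below 0.05 in none. The part of these cell types in the differences below was not tested, apart from the fits with the acinar score. The endocrine hormones were bright in both strains, with Iapp at 13.88 ± 0.051 in NZO and 13.90 ± 0.049 in C3H and Gcg at 13.21 ± 0.12 in NZO and 13.25 ± 0.06 in C3H (SD, n = 5 each). Ins2 did not pass either (0.12, limma adjusted p = 0.477). Sst (-0.75, limma adjusted p = 0.000379), Ppy (-0.41, limma adjusted p = 0.00465) and Ucn3 (-1.12, limma adjusted p = 0.00126) were lower in NZO, without overlap of the strains. C3H replicate 4 had the highest array median, 7.05, against 6.93 to 6.99 on the others. In whole islets, fewer cells of a type and less RNA per cell cannot be told apart.

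Mest (chr6:30733506-30748466, GRCm38.p6, as for the coordinates that follow), which encodes a hydrolase-fold protein of the endoplasmic reticulum linked to fat cell size in mice, showed the largest difference among the members. Its values were 8.91, 8.54, 8.86, 9.22 and 8.75 on the NZO arrays, against 9.64, 10.00, 9.71, 9.58 and 9.50 on the C3H arrays. Every NZO array lay below every C3H array. The means were 8.86 ± 0.25 in NZO and 9.68 ± 0.19 in C3H (SD, n = 5 each), a log2 difference of -0.83 (SE 0.12, limma adjusted p = 0.000496), or 1.78-fold lower in NZO. The other measured members of its cluster on chromosome 6 did not pass. Copg2, a coat protein of Golgi vesicles, differed by -0.04 (SE 0.075, limma adjusted p = 0.866), and Klf14, a transcription factor gene associated with type 2 diabetes in humans, by 0.01 (SE 0.10, limma adjusted p = 0.973). Neighbours were compared by their log2 ratio within an array, with a two-sided exact permutation test whose smallest possible p is 0.00794. The log2 ratio of Mest to Copg2 within an array differed between the strains by -0.79 (exact permutation p = 0.00794, 0.0125 adjusted over the 11 pairs), and that of Mest to Klf14 by -0.84 (exact permutation p = 0.00794, 0.0125 adjusted over the 11 pairs). Both ratios separated the strains. The pairs were formed from members that had already passed on these arrays, so these p-values add little to the difference of Mest itself.

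Among the genes outside the larger clusters, Plagl1 (chr10:13090832-13131694), a zinc finger transcription factor that controls other imprinted genes in mouse, had 8.48, 8.45, 8.44, 8.54 and 8.41 on the NZO arrays, against 8.98, 9.19, 9.06, 8.73 and 9.11 on the C3H arrays. The strains did not overlap, the NZO values lay within a narrow span, and the lowest C3H value was that of C3H replicate 4. The log2 difference was -0.55 (SE 0.087, limma adjusted p = 0.000805), or 1.46-fold lower in NZO. Nnat (chr2:157560078-157562525), a small membrane protein of the endoplasmic reticulum, had 7.24, 7.08, 7.33, 7.70 and 7.63 on the NZO arrays, against 7.83, 7.78, 7.80, 7.96 and 7.87 on the C3H arrays. All NZO values were below all C3H values, with NZO replicates 4 and 5 closest to C3H. The difference was -0.45 (SE 0.11, limma adjusted p = 0.0162), or 1.37-fold lower in NZO. Nap1l5 (chr6:58905233-58907126), of the nucleosome assembly protein family, had 9.54, 9.07, 9.30, 9.24 and 9.05 on the NZO arrays, against 9.85, 9.77, 10.02, 9.39 and 10.00 on the C3H arrays. C3H replicate 4 was the lowest C3H array and lay below NZO replicate 1, so the strains overlapped there. The difference was -0.57 (SE 0.12, limma adjusted p = 0.00865), or 1.48-fold lower in NZO. Sfmbt2 (chr2:10370440-10595253), a Polycomb-group gene needed in the mouse placenta, had 5.71, 6.09, 5.89, 5.86 and 5.94 on the NZO arrays, against 6.28, 6.28, 6.49, 6.39 and 6.11 on the C3H arrays. The strains did not overlap, but the NZO maximum and the C3H minimum almost touched. The difference was -0.41 (SE 0.091, limma adjusted p = 0.00922), and no fold is given because the level was low, at percentile 21.8.

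**Figure D3:**
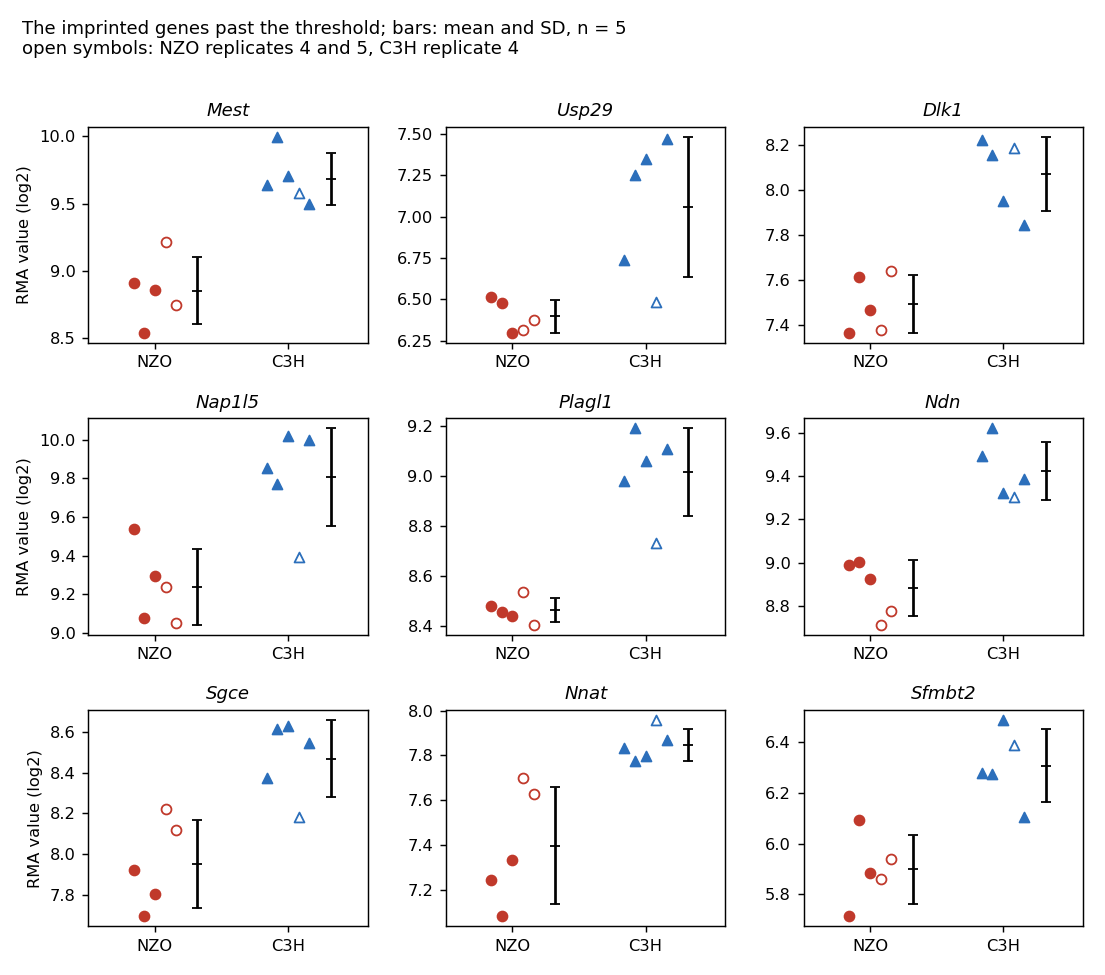
RMA value (y axis, log2) of the 9 imprinted genes that passed, on the NZO arrays (circles, left) and the C3H arrays (triangles, right), with the mean and SD of each strain (n = 5); open symbols are NZO replicates 4 and 5 and C3H replicate 4. The strains do not overlap in Mest, Dlk1, Plagl1, Ndn, Nnat and Sfmbt2, and in Usp29, Nap1l5 and Sgce the overlap comes from C3H replicate 4.

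In the Dlk1-Meg3 cluster of chromosome 12 the paternally expressed Dlk1 was lower and its measured neighbours did not pass. Dlk1 (chr12:109452485-109463336), which encodes a membrane protein with epidermal growth factor repeats related to Notch ligands, had 7.36, 7.61, 7.47, 7.38 and 7.64 on the NZO arrays, against 8.22, 8.15, 7.95, 8.19 and 7.84 on the C3H arrays. The strains did not overlap. The difference was -0.58 (SE 0.093, limma adjusted p = 0.000945), or 1.49-fold lower in NZO. Meg3, a long noncoding RNA expressed from the maternal copy, had 10.52, 10.06, 10.25, 9.41 and 9.80 on the NZO arrays, against 10.11, 10.30, 10.39, 9.94 and 10.28 on the C3H arrays. The NZO arrays spread more widely than the C3H arrays and lay on both sides of them, and the log2 difference, with a 95% interval of -0.55 to 0.16, was -0.20 (SE 0.17, limma adjusted p = 0.591). Rian, the next noncoding RNA of the cluster and a host of small nucleolar RNAs, had 7.11, 6.70, 7.06, 6.25 and 6.46 on the NZO arrays, against 6.23, 6.69, 6.63, 6.45 and 6.58 on the C3H arrays, a difference of 0.20 (SE 0.15, limma adjusted p = 0.538). Meg3 and Rian ordered the NZO arrays alike, with replicates 1 and 3 highest and replicates 5 and 4 lowest, the 2 arrays with the highest acinar score. With the acinar score as a covariate beside strain the differences were 0.56 (SE 0.25, limma adjusted p = 0.623) for Meg3 and 0.93 (SE 0.22, limma adjusted p = 0.0566) for Rian. Rtl1, a gene derived from a retrotransposon that is needed in the mouse placenta, differed by -0.0023 (95% interval -0.18 to 0.17). Its annotated span overlaps those of Meg3 and Rian.

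The ratio of Dlk1 to Rtl1 within an array differed between the strains by -0.58 (exact permutation p = 0.00794, 0.0125 adjusted over the 11 pairs), and that of Dlk1 to Rian by -0.78 (exact permutation p = 0.00794, 0.0125 adjusted over the 11 pairs). The ratio of Dlk1 to Meg3 differed by -0.38 (exact permutation p = 0.159, 0.159 adjusted over the 11 pairs), with overlapping strains, so an unequal change of Dlk1 and Meg3 was not shown. Rtl1 and Rian were dim, at percentiles 32.8 and 32.7, and not shown to be above background, so the ratios to them add little to the difference of Dlk1 itself. The same stretch, from the start of Dlk1 to the end of Mirg, holds 40 microRNA genes and 2 small nucleolar RNA genes that were measured, a set taken by position after the members' values were seen. None of the 42 passed with limma, 1 had an unadjusted p below 0.05, and the median difference was -0.07 (range -0.29 to 0.22). Their probe sets lie between percentiles 0.401 and 71.2, and the labelling was made for long transcripts, so the values do not show levels of mature microRNAs.

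In the Peg3 cluster at the proximal end of chromosome 7, Usp29 (chr7:6730559-6967220), a ubiquitin-specific peptidase gene, had 6.52, 6.48, 6.30, 6.32 and 6.38 on the NZO arrays, against 6.74, 7.25, 7.35, 6.48 and 7.47 on the C3H arrays. The C3H arrays spread widely, and C3H replicate 4 lay within the NZO range while the other C3H arrays were above it. The difference was -0.66 (SE 0.16, limma adjusted p = 0.0152), and no fold is given because Usp29 was dim, at percentile 35.1, and its NZO level was not shown to be above background. Peg3, a zinc finger transcription factor that starts from the other side of the promoter printed above, had 12.21, 12.22, 12.29, 12.14 and 12.27 on the NZO arrays, against 12.28, 12.33, 12.37, 12.20 and 12.39 on the C3H arrays. The strains overlapped, and the difference, with a 95% interval of -0.23 to 0.06, was -0.09 (SE 0.069, limma adjusted p = 0.557). RMA compresses differences at this brightness, so a difference in Peg3 may be understated. Zim1, a maternally expressed zinc finger gene, differed by -0.31 (SE 0.13, limma adjusted p = 0.186) and was lowest among C3H arrays on replicate 4, as Usp29 was; without that array Zim1 passed (limma adjusted p = 0.0148). The ratio of Usp29 to Peg3 differed between the strains by -0.58 (exact permutation p = 0.0159, 0.0175 adjusted over the 11 pairs) and that of Usp29 to Zim1 by -0.35 (exact permutation p = 0.0159, 0.0175 adjusted over the 11 pairs), and both ratios overlapped between the strains. Because Usp29 was dim and RMA compresses differences at the brightness of Peg3, these ratios add little to the difference of Usp29 itself.

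In the Prader-Willi cluster of chromosome 7, named for the human syndrome in which its paternal copy is lost, Ndn was lower. The other measured members of the cluster did not pass. Atp10a, which was not on the list of members, was higher (1.09, limma adjusted p = 0.001) and is given below. Ndn (chr7:62348277-62349928), which encodes the growth suppressor necdin of the MAGE family, had 8.99, 9.00, 8.93, 8.71 and 8.78 on the NZO arrays, against 9.49, 9.62, 9.32, 9.30 and 9.39 on the C3H arrays. The strains did not overlap, and NZO replicates 4 and 5 were the lowest arrays. The difference was -0.54 (SE 0.087, limma adjusted p = 0.000949), or 1.46-fold lower in NZO. Magel2, another MAGE gene, differed by -0.04 (SE 0.088, limma adjusted p = 0.882), Mkrn3, a RING finger gene that restrains puberty in humans, by 0.02 (SE 0.074, limma adjusted p = 0.921), and Peg12, a relative of the Frat genes of Wnt signalling, by 0.11 (SE 0.092, limma adjusted p = 0.588). These 3 genes ranked at percentiles 31.1, 20.6 and 51.2, below Ndn at 78.3. The ratio of Ndn to each of them separated the strains, by -0.51 against Magel2, -0.57 against Mkrn3 and -0.65 against Peg12. Each had an exact permutation p of 0.00794, the smallest that 5 against 5 arrays can give, and 0.0125 adjusted over the 11 pairs. Magel2 and Mkrn3 were not shown to be above background, so these ratios add little to the difference of Ndn itself.

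On chromosome 6, Sgce and Peg10 are, like Usp29 and Peg3, neighbours that are read in opposite directions. Sgce (chr6:4674350-4747204), the gene of epsilon-sarcoglycan, had 7.92, 7.69, 7.80, 8.22 and 8.12 on the NZO arrays, against 8.37, 8.61, 8.63, 8.18 and 8.55 on the C3H arrays. NZO replicates 4 and 5 were the highest NZO arrays and C3H replicate 4 the lowest C3H array, and the overlap was between NZO replicate 4 and C3H replicate 4. The difference was -0.52 (SE 0.11, limma adjusted p = 0.00957), or 1.43-fold lower in NZO. Peg10, a retrotransposon-derived gene needed in the mouse placenta, had 8.07, 7.58, 7.69, 8.21 and 7.88 on the NZO arrays, against 8.00, 8.42, 8.16, 7.79 and 8.19 on the C3H arrays, and differed by -0.23 (SE 0.13, limma adjusted p = 0.371). The ratio of Sgce to Peg10 differed by -0.29 (exact permutation p = 0.0159, 0.0175 adjusted over the 11 pairs), although the strains overlapped in it. The 11 pairs were set up after the calls were known, and their p-values do not allow for that choice. A differing ratio, also of 2 genes above background, does not show that the neighbour was unchanged.

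**Figure D4:**
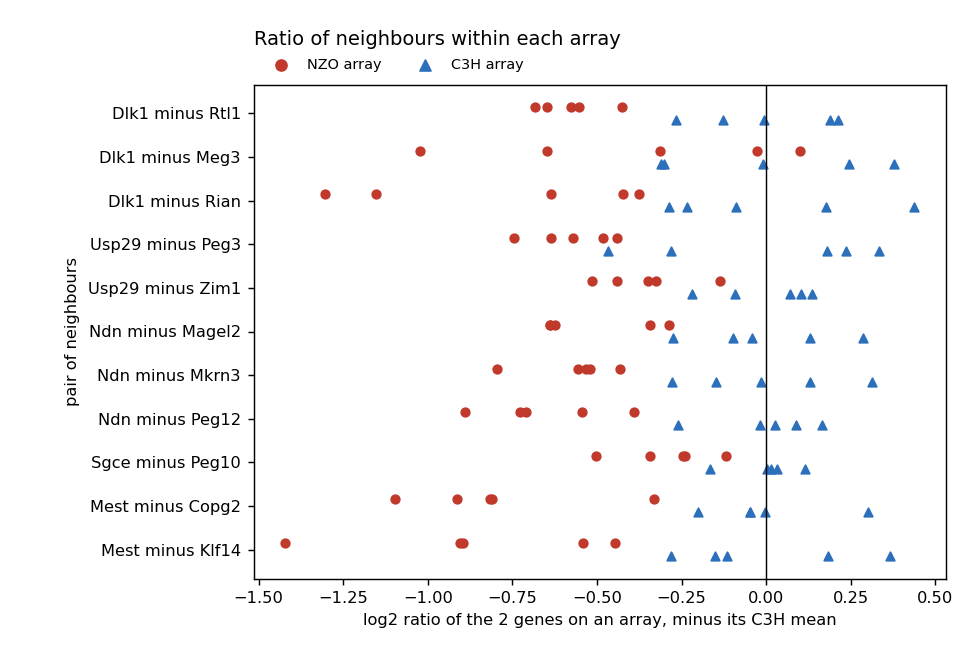
Log2 ratio of a lower imprinted gene to a neighbour in the same cluster on each array, relative to the C3H mean of that ratio (x axis), for the 11 pairs, with NZO arrays as circles and C3H arrays as triangles. The NZO arrays lie to the left without overlap in 7 pairs, overlap slightly in Usp29 to Peg3, Usp29 to Zim1 and Sgce to Peg10, and overlap widely in Dlk1 to Meg3.

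None of the 6 measured members in the Kcnq1ot1 cluster at the distal end of chromosome 7 passed with limma, and none had an unadjusted p below 0.05. This covers listed members only. Kcnq1 (0.27, limma adjusted p = 0.0426) and Th (-1.61, limma adjusted p = 2.58e-07), which were not on the list, passed and are given below. Cdkn1c, a cyclin-dependent kinase inhibitor, had 7.38, 7.59, 7.60, 7.75 and 7.68 on the NZO arrays, against 7.61, 7.47, 7.44, 7.71 and 7.42 on the C3H arrays. The strains overlapped, and the difference, with a 95% interval of -0.12 to 0.26, was 0.07 (SE 0.088, limma adjusted p = 0.758). Phlda2, which limits placental growth in mice, differed by 0.14 (SE 0.11, limma adjusted p = 0.568), the transporter gene Slc22a18 by 0.11 (SE 0.095, limma adjusted p = 0.619), and the tetraspanin Cd81 by -0.03 (SE 0.09, limma adjusted p = 0.917). Ascl2, a transcription factor of the mouse placenta, and the tetraspanin Tspan32 were dim and differed by 0.02 and 0.01. The 95% interval was -0.22 to 0.16 for Cd81, -0.11 to 0.39 for Phlda2, -0.10 to 0.31 for Slc22a18, -0.22 to 0.26 for Ascl2 and -0.24 to 0.26 for Tspan32.

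The remaining single loci did not pass. Airn, the noncoding RNA that silences the paternal copy of its neighbour Igf2r in mouse, had 9.31, 8.77, 9.16, 8.78 and 8.69 on the NZO arrays, against 9.16, 9.62, 9.57, 9.00 and 9.46 on the C3H arrays. The difference was -0.42 (SE 0.14, limma adjusted p = 0.0805), and it passed without C3H replicate 4 (limma adjusted p = 0.0273) and without NZO replicate 1 (0.0297). Rasgrf1, a Ras guanine nucleotide exchange factor gene whose loss reduces beta cell mass in mice, had 9.26, 8.71, 8.83, 8.87 and 8.97 on the NZO arrays, against 8.60, 8.67, 8.79, 8.15 and 8.68 on the C3H arrays. It had the highest positive difference of the members, 0.35 (SE 0.13, limma adjusted p = 0.101), and the strains overlapped. Ddc, the decarboxylase that makes dopamine and serotonin, differed by -0.20 (SE 0.10, limma adjusted p = 0.271), and Impact, a regulator of the stress kinase GCN2, by -0.13 (SE 0.081, limma adjusted p = 0.431). The phosphatase gene Inpp5f differed by 0.17 (SE 0.11, limma adjusted p = 0.452) and Ampd3, an AMP deaminase, by 0.24 (SE 0.18, limma adjusted p = 0.515). Leaving out 1 array moved Ampd3 between 0.11 without NZO replicate 4 and 0.41 without NZO replicate 2, and Ddc between -0.11 and -0.27 without the same arrays, with no call.

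The other measured imprinted genes showed no common direction. Of 31 further imprinted genes measured, 32.3% passed, against 10.1% of all genes: 6 were higher and 4 lower in NZO, with a median difference of -0.0025. Igf2, the paternally expressed growth factor, had 8.31, 8.32, 7.93, 7.93 and 7.91 on the NZO arrays, against 7.58, 7.60, 7.60, 7.78 and 7.48 on the C3H arrays, a difference of 0.47 (SE 0.10, limma adjusted p = 0.00859). Igf2r, the maternally expressed receptor that clears it, had 10.68, 10.45, 10.65, 10.54 and 10.68 on the NZO arrays, against 10.15, 10.31, 10.39, 9.96 and 10.37 on the C3H arrays, a difference of 0.36 (SE 0.093, limma adjusted p = 0.0205). In both genes every NZO array lay above every C3H array, and the sign was opposite to that of the 9 lower members. The potassium channel gene Kcnq1 (0.27, SE 0.078, limma adjusted p = 0.0426), the paraoxonase genes Pon2 (0.41, SE 0.12, limma adjusted p = 0.0377) and Pon3 (0.48, SE 0.11, limma adjusted p = 0.0107) and the phospholipid transporter gene Atp10a (1.09, SE 0.18, limma adjusted p = 0.001) were also higher. Th, the tyrosine hydroxylase gene, imprinted in mouse placenta, was -1.61 (SE 0.10, limma adjusted p = 2.58e-07) and Ppp1r9a, the neurabin gene, -0.61 (SE 0.086, limma adjusted p = 0.000365). Commd1 (-0.29, SE 0.071, limma adjusted p = 0.016) and the paternally expressed Zdbf2 (-0.51, SE 0.15, limma adjusted p = 0.0448) were lower too. The counts by cluster above cover listed members only and leave these genes out, also where they lie near a cluster. In 8 of these 10 genes the NZO array farthest from C3H in the direction of the difference was replicate 4 or 5, where the acinar score was highest. These were Atp10a, Pon2, Pon3 and Kcnq1 among the higher and Th, Ppp1r9a, Commd1 and Zdbf2 among the lower genes. Among the 9 lower members this held only for Nap1l5, Plagl1 and Ndn. The count was not made over all genes, so it is not shown to be particular to these genes, and its cause was not tested. Of the genes that did not pass, Dcn (0.93, SE 0.31, limma adjusted p = 0.078), Grb10 (0.21, SE 0.075, limma adjusted p = 0.11) and Asb4 (-0.17, SE 0.072, limma adjusted p = 0.182) had the smallest p. The number higher was 3 without NZO replicate 3, NZO replicate 5 or C3H replicate 1, and the number lower was 2 without NZO replicate 4 or C3H replicate 1.

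Of 16 genes that set or keep imprints, 3 passed, or 18.8% against 10.1% of all genes. Uhrf1, which recruits the maintenance DNA methyltransferase, differed by 0.38 (SE 0.11, limma adjusted p = 0.0326), the histone methyltransferase gene Ehmt2 by 0.29 (SE 0.074, limma adjusted p = 0.0219), and Tet1, an enzyme gene of DNA demethylation, by -0.38 (SE 0.10, limma adjusted p = 0.0222). Tet2, which also oxidises methylated cytosine, differed by -0.28 (SE 0.12, limma adjusted p = 0.174). The methyltransferase gene Dnmt3a (0.12, SE 0.093, limma adjusted p = 0.541) and the imprint reader gene Zfp445 (-0.10, SE 0.085, limma adjusted p = 0.608) did not pass either, nor did Zfp57 (-0.09, SE 0.079, limma adjusted p = 0.63), its cofactor Trim28 (0.08, SE 0.086, limma adjusted p = 0.714) and the maintenance methyltransferase gene Dnmt1 (0.10, SE 0.092, limma adjusted p = 0.609), the last 3 given for their role and chosen after their values were seen. Without NZO replicate 5 or C3H replicate 1 none of the maintenance genes passed as higher, and without any 1 of NZO replicates 4 and 5 and C3H replicates 1, 2, 3 and 5 none passed as lower. DNA methylation was not measured.

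Without NZO replicates 4 and 5, 6 of the 9 still passed and all were still lower, where 5.54% of all genes passed, 2.47% as lower. Usp29 (-0.63, SE 0.19, limma adjusted p = 0.0883), Nap1l5 (-0.50, SE 0.15, limma adjusted p = 0.0662) and Sfmbt2 (-0.41, SE 0.11, limma adjusted p = 0.0513) then missed the threshold at nearly the same size. With the acinar score as a covariate beside strain, Mest (-1.09, SE 0.24, limma adjusted p = 0.0373) and Nnat (-0.97, SE 0.16, limma adjusted p = 0.00661) passed, where 1.14% of all genes passed, 0.522% as lower. Dlk1 (-0.63, SE 0.19, limma adjusted p = 0.22), Plagl1 (-0.52, SE 0.18, limma adjusted p = 0.339), Sgce (-0.88, SE 0.21, limma adjusted p = 0.0573) and Sfmbt2 (-0.44, SE 0.19, limma adjusted p = 0.583) kept their direction and about their size or more but not their call. Ndn (-0.26, SE 0.16, limma adjusted p = 0.927) and Usp29 (-0.38, SE 0.31, limma adjusted p = 0.999) were closer to 0, and Nap1l5 was -0.46 (SE 0.25, limma adjusted p = 0.837). Because the score itself differed between the strains, its inclusion widened each SE by a factor of 2.003, apart from any change in residual spread. Without C3H replicate 4 all 9 passed, where 13.5% of all genes passed, 7.89% as lower. The number of members in which the strains did not overlap was then 10, against 6 with all arrays. Leaving out an array can only keep or raise this number for any set of genes. The share of all genes without overlap was not counted for that fit, so a gain particular to the members is not shown.

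**Figure D5:**
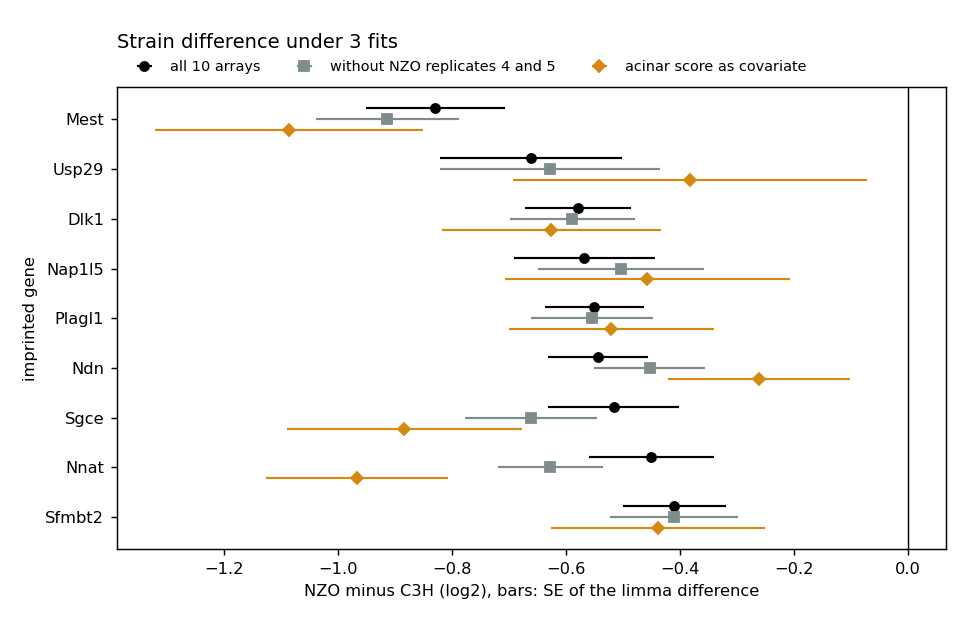
Log2 difference, NZO minus C3H (x axis), of the 9 lower imprinted genes with all 10 arrays, without NZO replicates 4 and 5, and with the acinar score as a covariate; bars are SEs from limma. All points lie left of 0, Mest and Nnat lie farther left with the covariate, and Ndn and Usp29 lie nearer to 0.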

How the data were processed

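Islet RNA (150 ng per array) of 10 samples was labelled with a whole-transcript kit per the labels' protocols, and hybridised to 1 Affymetrix array per sample. Per the submitters' processing notes, the authors turned the scans into the deposited log2 expression values with RMA in Affymetrix Expression Console. The version of that software and the genome build were not given in the sources used here. RMA gives no detection call and compresses very dim and very bright differences, and the number of arrays limits the precision.

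Of 35556 probe sets, 21789 carried 1 gene symbol, 1621 several and 12146 none in the annotation used. The brightest probe set by mean was kept where a gene had several (999 genes, no member), which left 19938 genes, unfiltered. All 32 measured members were matched by Entrez ID to RefSeq on GRCm38.p6. Strains were compared (NZO minus C3H, two-sided) in limma 3.58.1 under R 4.3.3, by lmFit followed by eBayes, with Benjamini-Hochberg adjustment over all genes and a threshold of 0.05; SEs are limma's. The script was tested on simulated data. Ratios of 11 neighbour pairs were compared by exact permutation over all 252 splits of the arrays, whose smallest p is 0.00794. The members, lists and pairs were chosen with earlier results of these data known, so lists are described by counts and medians without a test. All members are named; of the other imprinted and imprint maintenance genes, those that passed, the next 3 by p and 3 maintenance genes given for their role. Marker lists are given as means and counts. Replicates were numbered in accession order. Alternatives were leaving out arrays, filters on dim genes, other normalizations, other probe set choices, other variance models and an acinar covariate; leaving out NZO replicates 4 and 5 together with C3H replicate 4 was added after seeing the data.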

Additional observations from a re-analysis of the deposited data

Results flagged for a closer look

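In 2 of 64 groups of 5 arrays, 1 strain's values of 1 member each, a single array stood apart by Dixon's criterion (a gap to the nearest array of over 0.71 of the group's range), where chance gives about 1 in 20 groups. Rtl1, a dim gene of the Dlk1-Meg3 cluster, was highest on NZO replicate 2 at 6.72, against 6.57 to 6.61 on the other NZO arrays. Ddc, the aromatic amino acid decarboxylase gene, was highest on C3H replicate 5 at 11.2, against at most 11.12 on the other C3H arrays.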

How the results depend on the processing

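The 9 lower members kept their direction under each alternative that gave them a value (all 21 for 7 of them, 20 for Usp29 and 19 for Sfmbt2, which brightness filters left out) and their call in all but 10 values, which were 7 members with the acinar covariate and Usp29, Nap1l5 and Sfmbt2 without NZO replicates 4 and 5. No paired analysis was possible because replicate numbers were given in accession order and pair nothing. With the acinar covariate, 123 genes were higher and 104 lower, with 2 members lower, 1 other imprinted gene higher and 1 lower, and 0 imprint maintenance genes higher, 0 lower, and 0 acinar markers higher. Without NZO replicates 4 and 5 the counts were 613 genes higher and 492 lower, 2 other imprinted genes higher and 2 lower, and 0 maintenance genes higher and 0 lower. Without C3H replicate 4 as well, 2 other imprinted genes and 0 maintenance genes were higher, and 11 members did not overlap. For fits with arrays left out, the share of all genes without overlap was not counted, and such counts can only stay or rise. Array weights gave 1815 genes higher, 2310 lower and 2 maintenance genes lower. A second quantile normalization gave 1386 genes lower and 1 member higher, Rasgrf1. The median of the members was -0.11 above the 25th percentile of brightness and -0.20 above median brightness, where fewer members remain and 1 maintenance gene was higher. With the mean or the dimmest probe set of a gene, 0 maintenance genes were lower. Leaving out 1 array gave 772 to 1509 genes higher and 641 to 1574 lower (1574 without C3H replicate 4), 6 to 10 members not overlapping, a member median of -0.093 to -0.051, 3 to 7 other imprinted genes higher and 2 to 4 lower, and 0 to 2 maintenance genes higher and 0 to 2 lower. Airn passed in 4 alternatives, Zim1 without C3H replicate 4 and with array weights. Of the members that did not pass, these changed sign. Without NZO replicates 4 and 5 these were Ascl2 (-0.091), Cdkn1c (-0.0078), Rtl1 (0.014), Meg3 (0.072), Copg2 (0.029) and Ampd3 (-0.0032). Without those and C3H replicate 4 these were Ascl2 (-0.016), Rtl1 (0.075), Meg3 (0.0063), Magel2 (0.0084), Copg2 (0.0031) and Ampd3 (-0.10). With arrays centred these were Ascl2 (-0.0097), Tspan32 (-0.019), Mkrn3 (-0.0045) and Klf14 (-0.015). With a second quantile normalization these were Klf14 (-0.026). With array weights these were Rtl1 (0.023) and Magel2 (0.060). With the acinar covariate these were Ascl2 (-0.32), Cdkn1c (-0.19), Phlda2 (-0.19), Rtl1 (0.079), Meg3 (0.56), Zim1 (0.087), Copg2 (0.13), Ddc (0.23) and Ampd3 (-0.49). With 1 array left out, the differences on both sides of 0 were Ascl2 (-0.054 to 0.093), Cd81 (-0.066 to 0.027), Klf14 (-0.053 to 0.073), Magel2 (-0.082 to 0.0041), Mkrn3 (-0.0053 to 0.062), Rtl1 (-0.034 to 0.058), Tspan32 (-0.068 to 0.10). Causes were not tested.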
